A study of Mus musculus with 6 samples.

Results

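The netrins, slits and semaphorins are families of guidance cues, and the 47 genes described here encode these ligands and their receptors. They were chosen by symbol, as the rows of the deposited count table for netrins, Unc5 receptors, Dcc, Neo1, slits, robos, semaphorins, neuropilins and plexins. The choice was made with earlier results of these data known, so shares set beside those of all genes are descriptive. All 47 were found, each in 1 row, among 58116 rows. RNA was measured by poly(A) sequencing in salivary glands that came from wild-type mice on embryonic day 13.5 and were given 0 ng/ml (control, 3 libraries) or 300 ng/ml (3 libraries) of BMP-2, a bone morphogenetic protein that cells secrete as a signal. All libraries share tissue, stage and genotype, and the labels used here give neither the length of the treatment nor the litters or cultures behind each library. The p-values therefore measure spread between libraries that may be technical in part. The column name of 1 BMP-2 library matches no sample label. That library was placed in its group by the first letter of the name. It is the unnumbered BMP-2 library in the following.

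Guidance cues steer growing axons, and the same ligands and receptors act on blood vessels and on branching epithelia. Netrins are secreted relatives of laminins that are bound by Dcc and neogenin, which mostly attract, and by the Unc5 receptors, which mostly repel. Slits are secreted ligands of the robo receptors. Semaphorins signal through plexins. Most secreted class 3 semaphorins also need a neuropilin as coreceptor, whereas the membrane-anchored classes bind plexins directly. In cultured mouse submandibular glands, Sema3a and Sema3c acting through neuropilin 1 are known to promote the clefting of the epithelium.

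Of the 47 genes, 45 had enough counts to be tested, and 2 of them rose with BMP-2 while none fell (quasi-likelihood test of edgeR, p adjusted by Benjamini-Hochberg over all 17006 genes tested, threshold 0.05). They were Unc5b, a netrin receptor gene, which rose 3.14-fold, and Plxna2, a semaphorin receptor gene, which rose 2.65-fold. The 2 genes are 4.44% of the 45, against 0.911% of all genes tested (155 genes), of which 0.811% rose and 0.1% fell. At an unadjusted p below 0.05, 12 of the 45 were higher (6.47% of all genes) and 4 lower (3.65% of all genes), together 35.6% of the 45 against 10.1% of all genes. The CPM values (read counts relative to a TMM-adjusted library size) of the groups did not overlap for 18 of the 45, or 40%, against 15.5% of all genes. BMP-2 libraries were the higher ones for 13 of the 18 (8.76% of all genes) and the lower ones for 5 (6.73% of all genes). The median log2 change was 0.03 for the 45 genes and -0.01 for all genes, and 21 of the 45 changes were negative, against 52% of all genes. The 2 untested members, Ntn5 and Robo3, had at most 14 counts in any library.

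**Figure D1:**
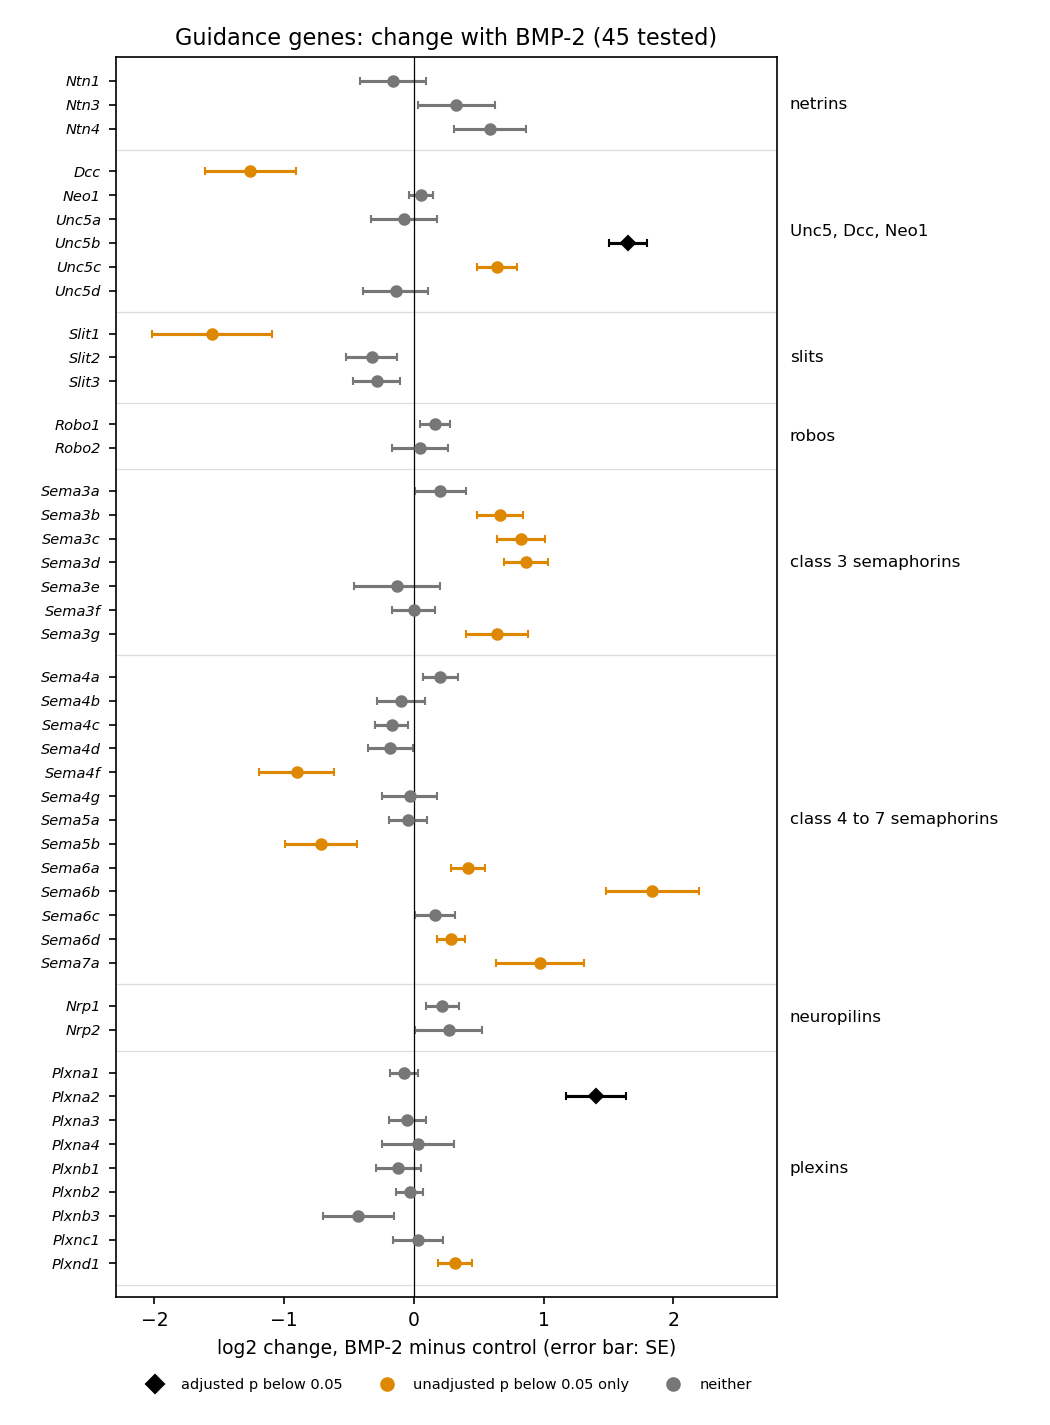
Log2 change (BMP-2 minus control, horizontal axis) of the 45 tested guidance genes, grouped by family; whiskers are the standard error of the edgeR fit and the symbol gives the call. Unc5b (1.65) and Plxna2 (1.41) are the 2 called genes, and Sema6b (1.84) has a larger change but a wider error.

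The promoters of the 2 called genes are shown because these genes carry the result. Both sequences are the 250 bases before the annotated start, 5′ to 3′ on the gene's strand, from RefSeq on build GRCm38.p6, at chr10:60831582-60831831 on the minus strand for Unc5b and chr1:194619579-194619828 on the plus strand for Plxna2. Capitals mark GGCGCC, a GC-rich element that BMP-regulated SMAD proteins can bind.
Unc5b: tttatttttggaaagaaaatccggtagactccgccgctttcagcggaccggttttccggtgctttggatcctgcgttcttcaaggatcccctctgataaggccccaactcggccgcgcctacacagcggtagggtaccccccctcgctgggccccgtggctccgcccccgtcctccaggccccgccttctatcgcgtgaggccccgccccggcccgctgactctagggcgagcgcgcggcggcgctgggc
Plxna2: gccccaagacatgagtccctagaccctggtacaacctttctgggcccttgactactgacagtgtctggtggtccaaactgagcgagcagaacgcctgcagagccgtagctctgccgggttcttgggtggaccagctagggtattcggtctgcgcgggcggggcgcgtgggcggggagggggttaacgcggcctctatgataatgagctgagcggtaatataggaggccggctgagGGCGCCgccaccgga
Both stretches are rich in G and C (66.8% for Unc5b and 62.8% for Plxna2). The window searched ran from 250 bases before to 50 bases after the start, on both strands. Plxna2 held GGCGCC once, beginning 15 bases before the start, and Unc5b held none. Among all 32851 windows of the promoter table, 3898 (11.9%) held it, and among the 51 windows of the 38 guidance genes with an entry, 10 (19.6%) did. The palindromic SMAD element GTCTAGAC, which shares no full match with GGCGCC, was in 0 of these 51 windows and in 0.213% of all windows. These are matches of letters in a short window and say nothing of whether a factor binds there.

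Among the netrins, no gene was called. Ntn1, the best studied netrin and the netrin gene with the highest CPM here, was at 25.5, 31.4 and 33.9 CPM in control replicates 1, 2 and 3, and at 24.0, 38.5 and 18.9 CPM in BMP-2 replicate 1, BMP-2 replicate 2 and the unnumbered library. The BMP-2 libraries lay on both sides of the controls, and the log2 change was -0.16 (95% interval from -0.74 to 0.42, adjusted p = 0.957, edgeR). Ntn4, a netrin that binds laminin in basement membranes, was at 1.79, 2.85 and 2.84 CPM without and 3.42, 4.36 and 3.52 CPM with BMP-2. Its groups did not overlap, but it was not called (log2 change 0.59, SE 0.277, adjusted p = 0.544, edgeR). Ntn3 had a log2 change of 0.33. It overlaps Tbc1d24 on the same strand, which is at 18.1 CPM in the controls against 1.75 CPM for Ntn3, so the division of reads between them is uncertain. Ntn5 had 0 to 2 counts in a control library and 2 to 9 in a BMP-2 library, too few for a test.

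The netrin receptors held the clearest change. Unc5b (chromosome 10, 60598372 to 60667360, minus strand, GRCm39 gene span) was at 25.9, 33.998 and 31.8 CPM in the controls, against 80.7, 105 and 103 CPM with BMP-2. Every BMP-2 library was more than 2 times as high as any control. The group means with SD (n = 3 each) were 30.6 ± 4.20 and 96.2 ± 13.5 CPM, and the log2 change was 1.65 (SE 0.147, 95% interval from 1.32 to 1.99, edgeR adjusted p = 0.00599). The call held under every other scaling, filter and test tried and without any single library. The exception was a fit with a skeletal muscle score as a covariate, in which edgeR called 0 of 17006 genes (345 at an unadjusted p below 0.05, 2 of them guidance genes). There the log2 change of Unc5b was 1.62, with an unadjusted p of 0.00107 and an adjusted p of 0.869 (edgeR). The score was higher in every BMP-2 library than in any control, so muscle content and treatment cannot be told apart in that fit.

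Unc5c, the closely related receptor, was at 25.2, 35.7 and 34.4 CPM without and 43.6, 51.9 and 53.1 CPM with BMP-2. Its groups did not overlap, and the log2 change of 0.64 (SE 0.153) was not called (adjusted p = 0.111, edgeR). Unc5a and Unc5d, both between 2.34 and 3.39 CPM in every library, had log2 changes of -0.08 and -0.14. Unc5a overlaps Hk3 on the other strand, which is at 4.31 CPM in the controls, so the assignment of reads is uncertain if counting ignored strand. Per kilobase of gene length, the scale on which levels of different genes can be compared, Unc5b made up 63.3 ± 1.23% of the summed Unc5 level in the controls and 80.5 ± 1.48% in the BMP-2 group (SD, n = 3 each), while the share of Unc5c was 22.2 ± 1.55% and 14.1 ± 0.354%. The shifts in these shares follow from the gene changes already given and were not tested. The size of the shares rests on the lengths, 6491 counted bases for Unc5b and 19135 for Unc5c. In the controls the mean CPM was 30.6 for Unc5b and 31.8 for Unc5c. A length that holds rarely used exons makes a share too low.

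Dcc, the classic attractive netrin receptor, was low and went the other way. It was at 2.19, 3.004 and 4.23 CPM in the controls, from 44, 60 and 113 counts, and at 1.03, 1.23 and 1.70 CPM with BMP-2, from 33, 30 and 40 counts. The groups did not overlap, but the log2 change of -1.26 (SE 0.349) was not called (adjusted p = 0.176, edgeR). The 11 neuron markers found in the table were measured beside it, because Dcc is best known from neurons. Their summed level was 138, 173 and 189 CPM in the controls and 64.2, 150.2 and 109 CPM with BMP-2, none was at 0 in any library, 0 of the 10 tested were called, and 8 of the 10 had negative changes (median -0.49). The part of neuron content in the values of Dcc was not tested. Neo1, which encodes neogenin, a receptor of netrins and of repulsive guidance molecules, was the most abundant gene of the group. It was at 213, 226 and 205 CPM without and 223, 217 and 227 CPM with BMP-2, with a log2 change of 0.05 (95% interval from -0.16 to 0.26, adjusted p = 0.961, edgeR).

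**Figure D2:**
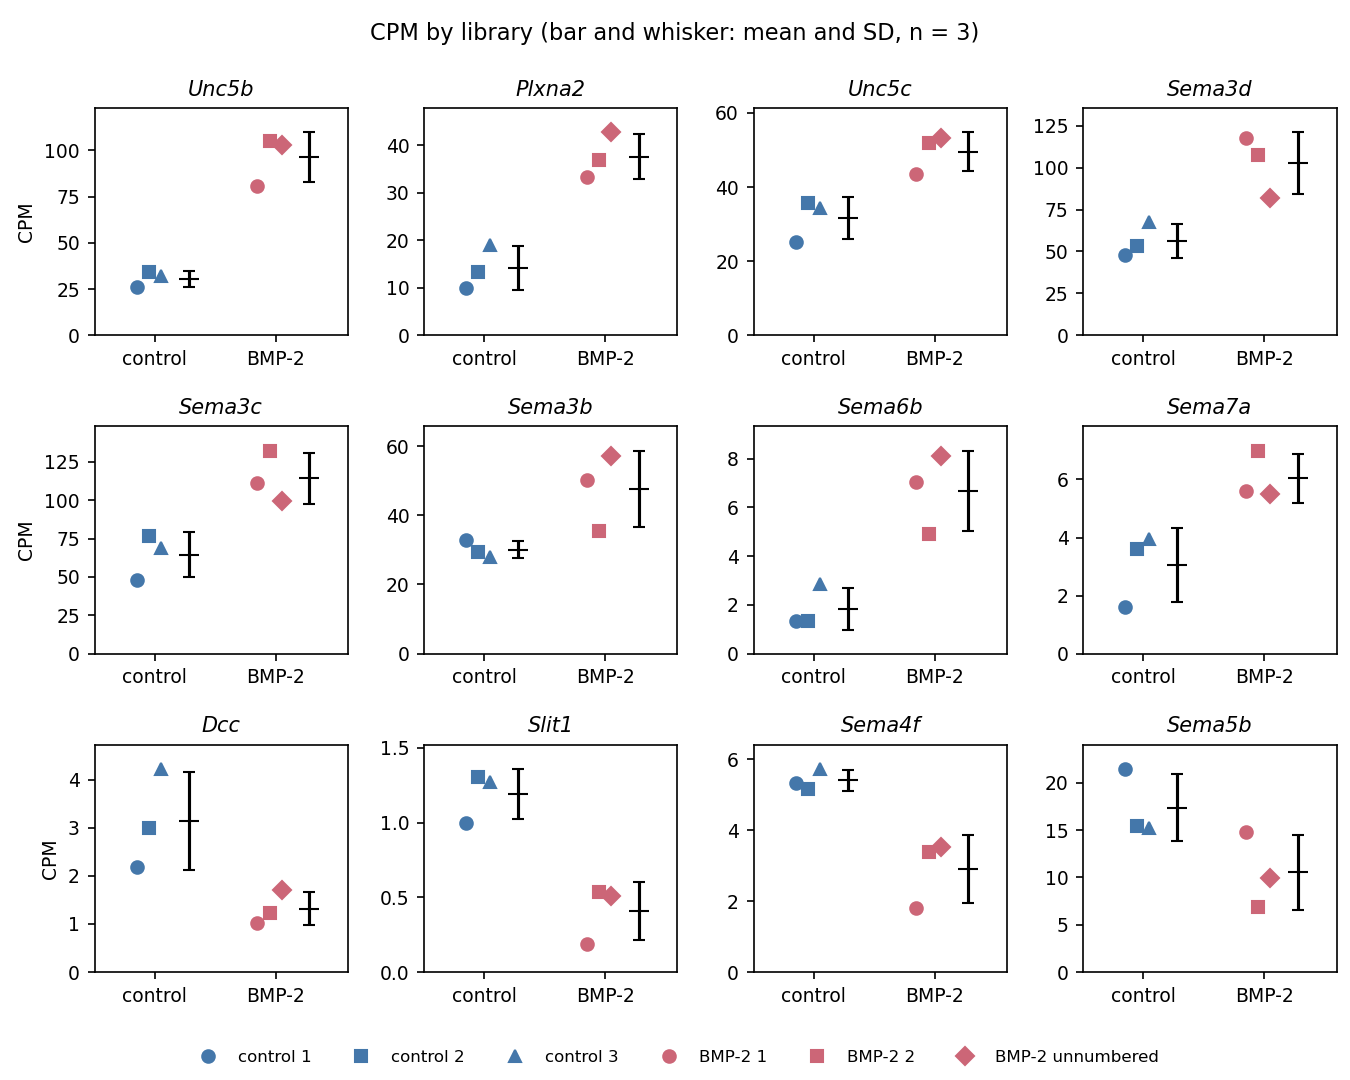
CPM (vertical axis, from 0, own scale in each panel) of 12 guidance genes in the 6 libraries, with the mean and SD of each group beside the points. Unc5b and Plxna2 show the 2 called rises; Dcc, Slit1, Sema4f and Sema5b were lower in every BMP-2 library than in any control but were not called.

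All 3 slits had negative changes and none was called. Slit2, the slit with the highest CPM, was at 101, 181 and 163 CPM in the controls, against 114, 117 and 124 CPM with BMP-2. The groups overlapped because control replicate 1 was the lowest of the 6 libraries, and the log2 change was -0.33 (95% interval from -0.78 to 0.12, adjusted p = 0.721, edgeR). Slit3 had a log2 change of -0.28. Slit1, known mainly from the nervous system, was at 0.995, 1.30 and 1.27 CPM without and 0.187, 0.535 and 0.509 CPM with BMP-2, from 20, 26 and 34 counts and from 6, 13 and 12 counts. Its groups did not overlap, and the log2 change of -1.56 (SE 0.460) was not called (adjusted p = 0.207, edgeR). The neuron marker sums given for Dcc stand beside Slit1 as well, and their part in it was not tested.

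The slit receptors were not called. Robo2, the robo with the highest CPM, was at 80.3, 72.2 and 70.0 CPM without and 95.9, 50.5 and 83.8 CPM with BMP-2, with the highest and the lowest value both in treated libraries (log2 change 0.05, 95% interval from -0.45 to 0.55, adjusted p = 0.987, edgeR). Robo1 had a log2 change of 0.16. Robo3, a divergent family member that in mammals does not bind slits with high affinity, had 2 to 14 counts in a library and was not tested.

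Among the class 3 semaphorins, 4 of 7 were higher in every BMP-2 library than in any control, against 8.76% of all genes, and none was called. Sema3d was at 48.1, 53.0 and 67.5 CPM without and 118, 108 and 82.0 CPM with BMP-2, a log2 change of 0.87 (SE 0.172, adjusted p = 0.0663, edgeR). Sema3c, a ligand that acts through neuropilins and plexin D1, was at 48.0, 76.9 and 68.8 CPM without and 111, 132 and 99.5 CPM with BMP-2, a log2 change of 0.82 (SE 0.184, adjusted p = 0.0948, edgeR). For both genes the gap between the groups was narrower than the range within either group. Sema3b was at 32.8, 29.4 and 27.98 CPM without and 50.1, 35.5 and 57.2 CPM with BMP-2, so that BMP-2 replicate 2 was close to the controls (log2 change 0.66, SE 0.175, adjusted p = 0.149, edgeR). Sema3g, which is expressed by endothelium in other tissues, was low, at 2.59, 2.40 and 3.37 CPM without and 4.29, 4.15 and 4.67 CPM with BMP-2 (log2 change 0.64, SE 0.239, adjusted p = 0.363, edgeR).

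The remaining class 3 genes showed no separation of the groups. Sema3f, whose product acts mainly through neuropilin 2, had the highest CPM of the class in the controls and over both groups. With BMP-2 the mean of Sema3c was higher, at 114 CPM against 106 CPM for Sema3f. Sema3f was at 117, 89.4 and 113 CPM without and 114, 122 and 82.8 CPM with BMP-2, a log2 change of 0.00 (95% interval from -0.38 to 0.38, adjusted p = 0.999, edgeR). Sema3a, the repellent first known as collapsin, had a log2 change of 0.20 (95% interval from -0.25 to 0.66), and Sema3e, which binds plexin D1 without a neuropilin, of -0.13 (from -0.89 to 0.63). Per kilobase, Sema3f made up 48.5 ± 5.85% of the summed class 3 level without and 36.0 ± 4.01% with BMP-2, and Sema3c 20.3 ± 4.89% and 26.7 ± 2.45% (SD, n = 3 each; not tested).

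The 13 membrane-anchored semaphorin genes of classes 4 to 7 were not called, with 6 positive and 7 negative changes and a median log2 change of -0.03. The widest changes, of Sema6b upward and Sema4f downward, belonged to genes below 10 CPM in every library. Sema6b, a transmembrane ligand of class A plexins, was at 1.34, 1.35 and 2.84 CPM in the controls, against 7.06, 4.89 and 8.10 CPM with BMP-2. Its log2 change of 1.84 (SE 0.361) was the largest of all 45 and missed the threshold (adjusted p = 0.0638, edgeR). Control replicates 1 and 2 had 27 counts each, so that their order rests on library scaling alone. Apart from these 2, the order of Sema6b over the libraries was that of the skeletal muscle markers given further on. Sema7a, the semaphorin with a GPI anchor, which binds plexin C1 and integrins, was at 1.59, 3.61 and 3.96 CPM without and 5.60, 6.99 and 5.52 CPM with BMP-2 (log2 change 0.98, SE 0.339, adjusted p = 0.310, edgeR).

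Sema6a, another ligand of plexins A2 and A4, was at 28.6, 27.0 and 22.8 CPM without and 34.5, 31.4 and 38.6 CPM with BMP-2 (log2 change 0.42, adjusted p = 0.253, edgeR). Sema6d, a ligand of plexin A1, was at 34.9, 39.1 and 34.7 CPM without and 40.6, 47.7 and 44.3 CPM with BMP-2 (log2 change 0.29, adjusted p = 0.388, edgeR). In both genes the groups did not overlap and the change was small. Sema4f was at 5.33, 5.16 and 5.72 CPM without and 1.80, 3.37 and 3.52 CPM with BMP-2 (log2 change -0.90, SE 0.292, adjusted p = 0.257, edgeR). Sema5b was at 21.4, 15.4 and 15.2 CPM without and 14.8, 6.91 and 9.89 CPM with BMP-2 (log2 change -0.72, SE 0.279, adjusted p = 0.402, edgeR). Both were lower in every BMP-2 library, Sema5b by a narrow margin between the lowest control and the highest treated library. Sema5a, with the highest CPM of these classes, was at 120.04, 132 and 135 CPM without and 154, 120.01 and 102 CPM with BMP-2 (log2 change -0.05, 95% interval from -0.39 to 0.30, edgeR). The other 6, Sema4a, Sema4b, Sema4c, Sema4d, Sema4g and Sema6c, had log2 changes from -0.18 for Sema4d to 0.20 for Sema4a.

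The neuropilins, coreceptors of class 3 semaphorins and of vascular endothelial growth factor, were abundant and not called. Nrp1 was at 131, 177 and 171 CPM without and 189.7, 185 and 184 CPM with BMP-2, so that all treated libraries lay just above the highest control (log2 change 0.22, 95% interval from -0.07 to 0.51, adjusted p = 0.684, edgeR). Nrp2 varied more, and its log2 change was 0.27 (95% interval from -0.33 to 0.87).

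Of the 9 plexins, Plxna2 rose. Plxna2 encodes a class A plexin that binds Sema6a and Sema6b directly and class 3 semaphorins together with a neuropilin. It lies on chromosome 1 from 194300526 to 194499177 on the plus strand (GRCm39 gene span). It was at 9.90, 13.4 and 19.1 CPM in the controls, against 33.3, 36.9 and 42.8 CPM with BMP-2, so that control replicate 3, the highest control, was still well below the lowest treated library. The group means with SD (n = 3 each) were 14.1 ± 4.65 and 37.6 ± 4.79 CPM, and the log2 change was 1.41 (SE 0.231, 95% interval from 0.88 to 1.94, edgeR adjusted p = 0.0420). This call was near the threshold. It ended when library totals were used for scaling (adjusted p = 0.0547), without control replicate 1 or 2 (0.0858 and 0.161), without replicate 1 or 2 of the BMP-2 group or its unnumbered library (0.0817, 0.0757 and 0.142, all edgeR), and with the muscle score as a covariate, where the log2 change was 0.66 (adjusted p = 0.99998).

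The other class A plexins were not called. Plxna1, the most abundant of them, had a log2 change of -0.08 (95% interval from -0.32 to 0.16), Plxna3 of -0.05 and Plxna4 of 0.03. Per kilobase, Plxna2 made up 2.28 ± 0.604% of the summed class A level in the controls and 6.21 ± 0.925% in the BMP-2 group (SD, n = 3 each; not tested), so that it remained a minor part beside Plxna1, at 77.6 ± 2.16% and 74.03 ± 2.65%. Plxnb2, a receptor of class 4 semaphorins, was the guidance gene with the highest level of all. It was at 534, 503 and 509.9 CPM without and 462, 535 and 515 CPM with BMP-2 (log2 change -0.03, 95% interval from -0.28 to 0.21, adjusted p = 0.984, edgeR). Plxnb1, the receptor of Sema4d, had a log2 change of -0.12, and Plxnc1 of 0.03. Plxnb3, low in level, was at 2.59, 3.45 and 2.39 CPM without and 1.96, 1.93 and 2.38 CPM with BMP-2, the lowest control just above the highest treated library (log2 change -0.43, adjusted p = 0.760, edgeR). Plxnd1, the receptor of Sema3e that is best known from blood vessels, was at 44.0, 39.8 and 51.7 CPM without and 50.3, 56.5 and 62.2 CPM with BMP-2, and its groups overlapped (log2 change 0.32, SE 0.131, adjusted p = 0.449, edgeR). The 8 endothelial markers summed to 8.91, 11.6 and 22.2 CPM without and 21.9, 13.0 and 22.5 CPM with BMP-2, none was at 0 in any library, and 7 of 8 had positive, uncalled changes (median 0.42). Their part in the values of Plxnd1 and Sema3g was not tested. In whole-gland RNA, more cells of a type and more RNA per cell cannot be told apart.

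Ordered by level per kilobase in the controls, the genes spanned more than 3 powers of 10. Plxnb2 stood first at 55.7 ± 1.76 CPM per kilobase, followed by Plxna1 at 27.6 ± 1.43, Neo1 at 20.0 ± 0.986 and Sema3f at 19.5 ± 2.71 (SD, n = 3 each). Neo1 and Sema3f did not differ beyond their spread. These 4 kept the first 4 ranks with BMP-2. Unc5b was in rank 17 of 47 in the controls, at 4.71 ± 0.648 CPM per kilobase, beside Ntn1 at 4.66 ± 0.661, from which it did not differ beyond the spread. With BMP-2 it was in rank 5, at 14.8 ± 2.07 CPM per kilobase, beside Sema3c at 14.4 ± 2.09. Plxna2 moved from rank 34 to rank 28. The length is that of all counted bases of a gene, so genes with rarely used exons are placed too low.

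**Figure D3:**
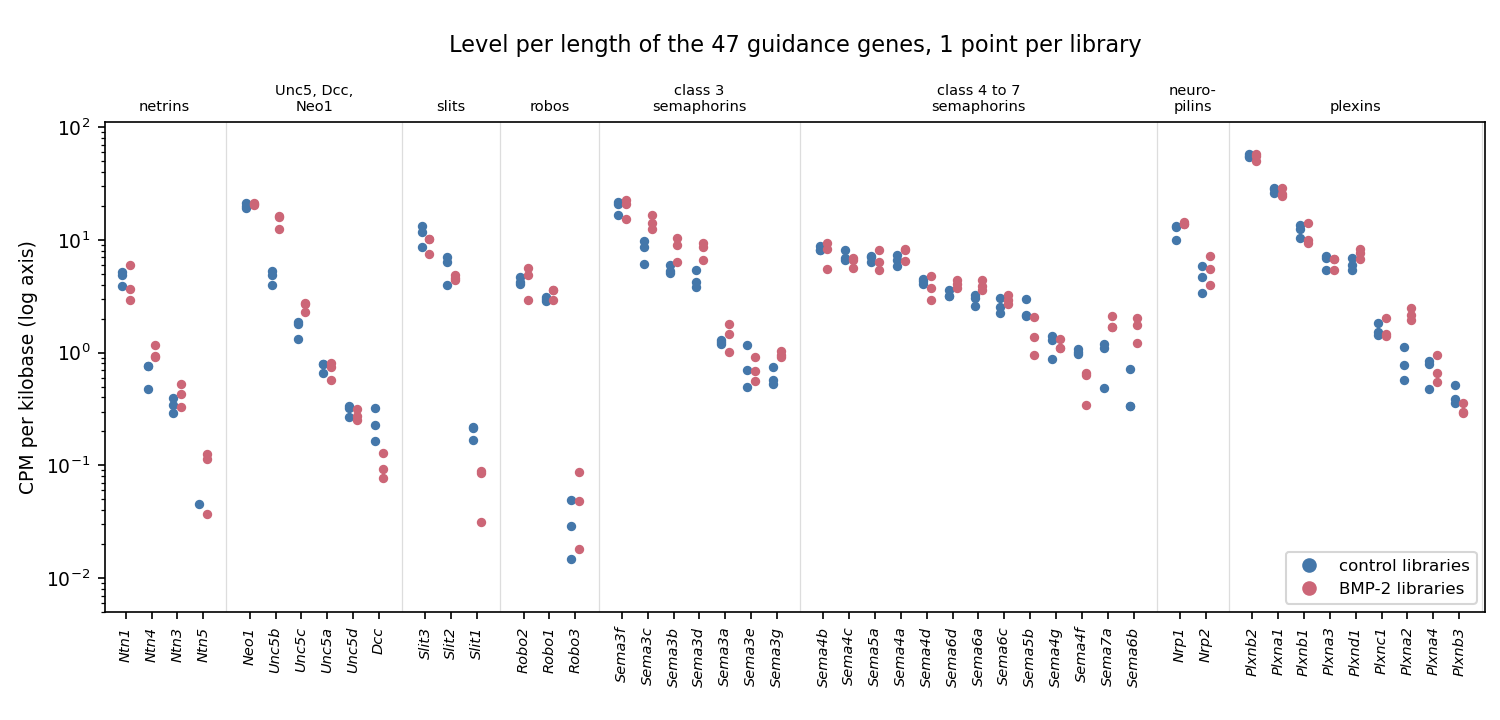
Level per kilobase (CPM per kilobase, log axis) of the 47 guidance genes in the 3 control and 3 BMP-2 libraries, 1 point per library, ordered by control level within each family; libraries with 0 counts (Ntn5 in 2 controls) have no point. The groups do not overlap for 18 of the 45 tested genes. Among these, Unc5b, Plxna2 and Sema6b are higher with BMP-2, and Slit1 and Dcc are lower.

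Other genes of the netrin, slit and semaphorin pathways were taken as a list of 49 further ligands, receptors, coreceptors and cytoplasmic effectors. Of the 48 tested, 1 rose and none fell (2.08%, against 0.911% of all genes), and the median log2 change was 0.02. The gene that rose was Draxin, which encodes a secreted ligand of Dcc and netrins, from 0.349 ± 0.100 to 3.95 ± 2.13 CPM (mean and SD, n = 3 each), with a log2 change of 3.45 (SE 0.558, adjusted p = 0.0406 in edgeR). The ephrins and Eph receptors, another family of guidance genes, were taken for comparison. Of 20 tested, 2 rose and none fell (10%), with a median of 0.13. Efna3, an ephrin ligand gene, went from 10.2 ± 1.92 to 25.4 ± 5.15 CPM (adjusted p = 0.0348), and the receptor gene Epha1 from 76.6 ± 2.67 to 123 ± 18.8 CPM (adjusted p = 0.0482; SD, n = 3 each, edgeR). None of the 3 calls held in limma-voom or without control replicate 1, control replicate 2 or the unnumbered BMP-2 library. Without control replicate 3 the partner list held 0 calls and the ephrin list 1, and without BMP-2 replicate 2 they held 1 and 0. No difference between these lists and the 47 genes was tested.

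Total counts were between 19724383 and 32473558 per library, and the 47 genes took 0.233 to 0.298% of them. Markers of the labelled tissue were present in every library. The 8 epithelial markers summed to 4214 to 4859 CPM without and 3567 to 5295 CPM with BMP-2, with 0 of 8 called. The 6 early salivary markers summed to 2194 to 4341 and 1119.9 to 1596 CPM, so that every treated sum was below every control sum. None was called, and 1 of the 6 changes was positive (median log2 change -0.34). Bpifa2, the largest part, went from 2290 ± 967 to 829 ± 283 CPM, and Lpo from 348 ± 139 to 115 ± 33.4 CPM (mean and SD, n = 3 each). The 8 mesenchymal markers summed to 6974 to 8070.0 and 6151 to 9455 CPM, with 1 of 8 called higher. Schwann cell and glial markers summed to 397 to 424 and 365 to 479.9 CPM, with 0 of 7 tested called. Leukocyte markers summed to 109.8 to 230.2 and 180.3 to 354 CPM, with 0 of 7 called. All 7 leukocyte changes were positive (median log2 change 0.45). Cartilage and bone markers summed to 216 to 265 and 266 to 384 CPM, and Sox9, not called, was the largest part. Of the cartilage and bone markers, 3 of 7 tested were called higher (median log2 change 3.96). Mean CPM went from 1.19 to 26.4 for Col2a1, 0.208 to 8.48 for Acan and 0.0167 to 8.12 for Sp7. Their part in the values of the guidance genes was not tested.

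Of 14 skeletal muscle markers found in the table, 13 were tested, and 1 of them, Pax7, was called higher. All 13 had positive changes (median log2 change 4.15). Their summed level was 3.04, 3.15 and 93.0 CPM in control replicates 1, 2 and 3 and 815, 189 and 827 CPM in BMP-2 replicate 1, BMP-2 replicate 2 and the unnumbered library. In control replicate 1, 8 of the 14 were at 0, Myog and Actc1 among them, and in control replicate 2, 3 were. Control replicate 3, with the highest muscle sum among the controls, had 31.8 CPM of Unc5b, and BMP-2 replicate 2, with the lowest among the treated, had 105 CPM. Without control replicate 3 its log2 change was 1.70 (adjusted p = 0.0133, edgeR). Plxna2 was highest in control replicate 3 among the controls and lowest in BMP-2 replicate 1 among the treated libraries. Sema6b followed the order of the muscle markers, apart from control replicates 1 and 2, where it had 27 counts each and the muscle sums were close. The muscle sums of BMP-2 replicate 1 and the unnumbered library were also close. With the muscle score as a covariate the log2 change of Sema6b was 0.48. The part of muscle content in the values of Unc5b, whose call was lost with the covariate, and of Plxna2 and Sema6b was not tested beyond these values.

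**Figure D4:**
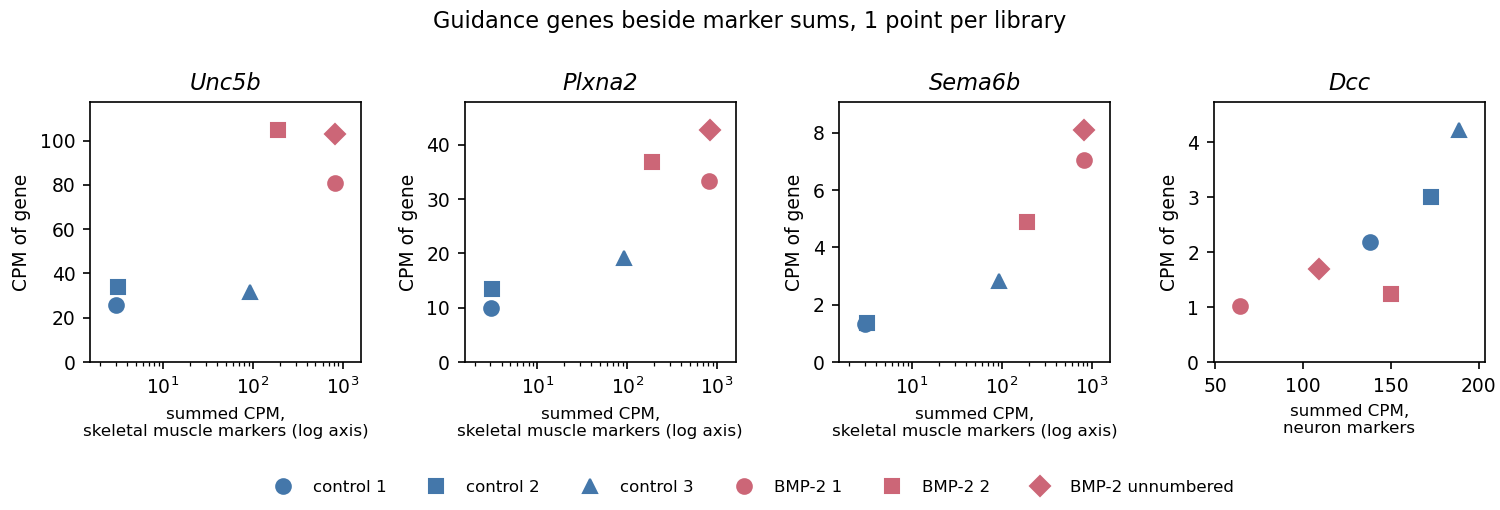
CPM of Unc5b, Plxna2, Sema6b (vertical axes, from 0) against the summed CPM of 14 skeletal muscle markers (log axis), and of Dcc against the summed CPM of 11 neuron markers, 1 point per library. Unc5b is at 31.8 CPM in the control library with 93.0 CPM of muscle markers. In the BMP-2 library with 189 CPM of these markers, Unc5b is at 105 CPM. Sema6b follows the order of the muscle sums, apart from control replicates 1 and 2, which have 27 counts each.

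DESeq2 called 7 of the 45 guidance genes, all higher, against 3.95% of all genes in that test (672 genes). They were Unc5b, Plxna2, Sema3d, Sema6b, Sema3c, Sema3b and Unc5c. Without a low-count filter, edgeR called the same 7, against 1.74% of all genes. The plot of alternatives shows where the calls of the 4 genes with the lowest p-values stood.

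**Figure D5:**
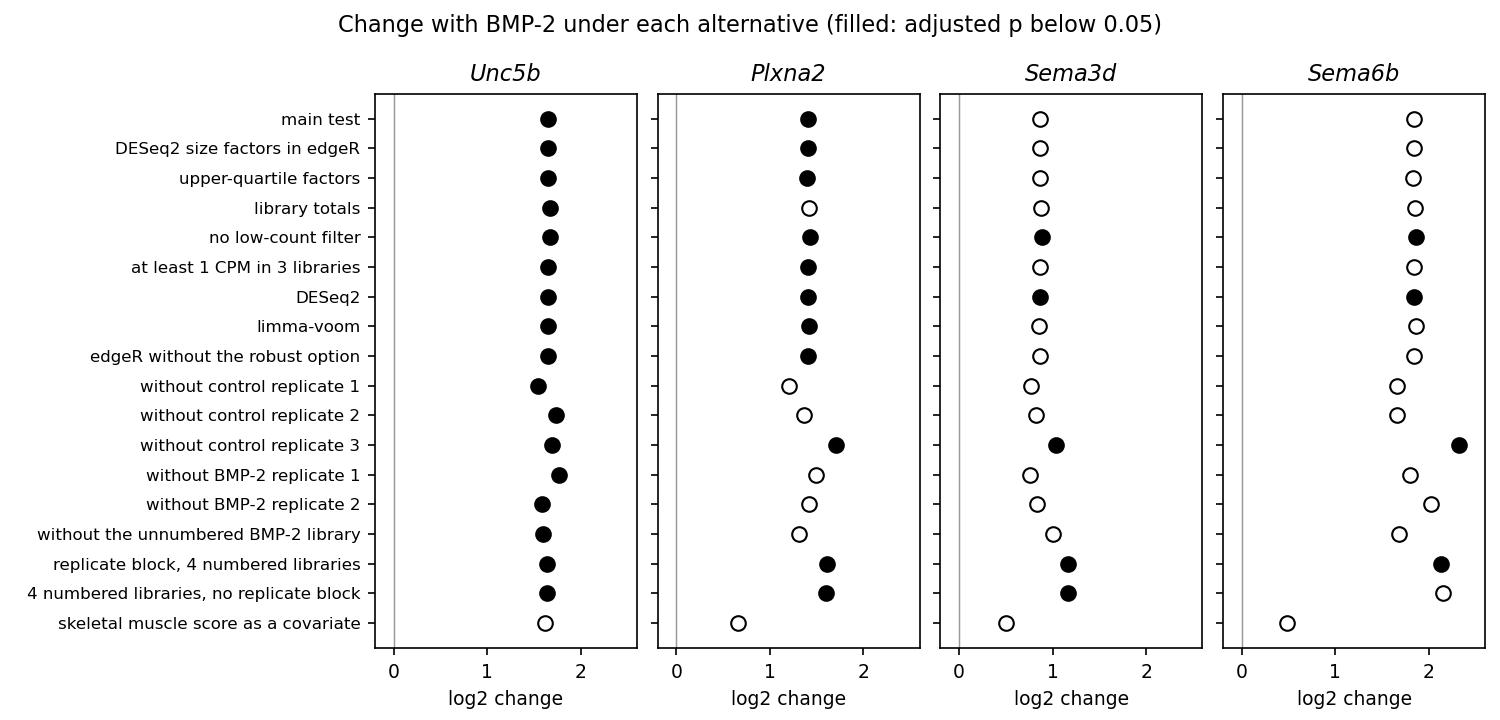
Log2 change (horizontal axis) of Unc5b, Plxna2, Sema3d and Sema6b in the main test and 17 alternatives (vertical axis); filled points have an adjusted p below 0.05. Unc5b keeps its size in all, from 1.55 to 1.77, and loses its call only with the muscle score as a covariate, where Plxna2 is at 0.66 and Sema6b at 0.48. That score is higher in every BMP-2 library than in any control.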

How the data were processed

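The authors deposited 1 table of raw read counts per gene for 6 libraries, with gene length and GRCm39 coordinates. Cutadapt 2.9, HISAT2 2.2.0 and featureCounts are named per the submitters' processing notes. Strandedness of the counting and its treatment of multiply matching reads: not given in the sources used here; overlapping genes are therefore uncertain. Groups came from the labels through column names for 5 libraries, and from the first letter for 1.

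Counts were tested with edgeR 4.0.16 (R 4.3.3; quasi-likelihood, robust, TMM factors, default expression filter) over 17006 genes with Benjamini-Hochberg adjustment at 0.05, 3 libraries against 3 (4 residual degrees of freedom). The script was tested on simulated counts. The 95% intervals come from the edgeR standard errors. Within groups, chi-square over genes divided by its degrees of freedom was 12.7 to 38.2 for pairs of libraries. Between groups it was 23.7 to 63.2. Each library was counted separately, but this spread does not show whether libraries came from separate litters or cultures. Values in every library are given for members that were called, had an unadjusted p below 0.05, had groups that did not overlap, or had the highest CPM of their family over both groups. Members and lists were chosen with earlier results of these data known. Alternatives were 3 scalings, 2 filters, DESeq2 1.42.0, limma-voom (limma 3.58.1), edgeR without the robust option, each library left out, a replicate block and a muscle covariate (mean log2 CPM, prior count 2). A fit of the 4 numbered libraries without the block was added after seeing the data. Promoters came from a RefSeq table of build GRCm38.p6, which held 38 of the 47 genes, and its coordinates were not mixed with those of the counts.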

Additional observations from a re-analysis of the deposited data

How the results depend on the processing

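Against 2 called guidance genes and 155 genes in all, library totals called 1 guidance gene (128 in all), no filter 7 (552), DESeq2 7 (672), limma-voom 2 (78), the replicate block on 4 numbered libraries 6 (609), the same libraries without it 3 (42), and the muscle covariate 0 (0; 2 and 345 at an unadjusted p below 0.05, edgeR). Leaving out 1 library gave 1 to 4 guidance genes and 19 to 150 in all. Against 1 called partner gene, no filter called 2, DESeq2 4, the block 5, and limma-voom, the 4 libraries without the block and the covariate 0 (12, 9 and 3 at an unadjusted p below 0.05). Against 2 ephrin and Eph genes, upper-quartile factors, library totals and edgeR without the robust option called 1, DESeq2 4, and limma-voom, the 4 libraries without the block and the covariate 0 (8, 5 and 4 at an unadjusted p below 0.05). Leaving out 1 library gave 0 to 1 for either list. The causes were not tested.

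The replicate numbers are shared by 2 pairs only, and nothing in the labels says that a number marks a litter or day. Deviations of same-numbered libraries correlated at 0.405, which does not show pairing with so few, so the block is not a main result.

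Among the 26 genes given in full, 21 kept the sign of their change in every setting. Signs turned for uncalled changes near 0. Sema3f was at 0.0028 with DESeq2 size factors and in DESeq2, 0.018 with library totals, 0.020 without the filter, 0.0014 with the stricter filter, 0.21 with the block, 0.20 on those libraries without it and 0.062 with the covariate. Ntn1 was at 0.11 with and 0.14 without the block, Sema5a at 0.12 and 0.13, and Robo2 at -0.12 and -0.0503. With the covariate Robo2 was at -0.21 and Plxnb2 at 0.062. When 1 library was left out, the ranges were -0.11 to 0.15 for Sema3f, -0.497 to 0.043 for Ntn1, -0.22 to 0.084 for Sema5a, -0.14 to 0.28 for Robo2 and -0.078 to 0.026 for Plxnb2. Depth limits the lowest genes most, such as Slit1 with 6 to 34 counts in a library. Slit1 did not pass the stricter filter and has no value there.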
